A study of Drosophila melanogaster with 21 samples.

Results

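The early peaks described here are regions of open chromatin in L1 neurons of Drosophila melanogaster that were open at 40 h after puparium formation and had lost most of that signal by 60 h and 72 h. They were chosen from the deposited table of 26121 ATAC-seq peaks by their levels, averaged over the 2 libraries of each age. A peak qualified when its 40 h mean was at least 60 and at least 3 times both the 60 h mean and the 72 h mean. This gave 1331 peaks, 5.10% of all peaks and 15.3% of the 8701 peaks with a 40 h mean of at least 60. The remaining 7370 peaks with that 40 h mean are called the other 40 h peaks below. A 72 h mean of at least 60 and at least 3 times both earlier means was met by 18 peaks. That condition leaves out peaks that had opened by 60 h and stayed open, so it does not count all opening peaks.

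L1 neurons are lamina neurons of the fly visual system that receive input from photoreceptors. Cells sorted by flow cytometry from the brains of wild type pupae gave ATAC-seq libraries at 40 h, 60 h and 72 h (n = 2 at each age) and RNA-seq libraries at the same ages (n = 2, 3 and 2). The labels do not name the driver or marker behind the sort. They also do not say whether libraries came from separate groups of animals, so the spread behind each p-value may be technical. Single-cell libraries of the series, which carry perturbations of the ecdysone pathway, were not analysed here.

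ATAC-seq uses a transposase that cuts accessible DNA, so reads pile up at promoters and enhancers that are free of tightly packed nucleosomes. In fly pupae, pulses of the steroid hormone ecdysone act through the receptor EcR, which switches on early genes that encode nuclear receptors and other transcription factors. These factors in turn switch on and off later genes, and in the nervous system the cascade is known for its part in axon remodelling, programmed cell death and the timing of wiring.

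The effective size of the ATAC libraries was 13.8 to 18.3 M reads. That of the RNA libraries was estimated at 46.1 and 46.0 M reads at 40 h and at 22.1 to 28.5 M reads later. The RNA estimates rest on the 294 to 406 genes per library, of 1100 to 1732 looked at, whose levels gave whole reads. RNA depth thus differed between 40 h and the later ages, and its part in the RNA changes was not tested. Levels are read as RPKM, reads per kilobase of peak or gene scaled to this effective size. In the 40 h ATAC libraries the reads in peaks (19.8 and 18.0 M) exceeded the effective size (18.3 and 14.4 M). In those of 72 h they were below it (12.7 and 13.3 M against 14.6 and 15.1 M). The divisor of the ATAC levels is therefore not the plain count of reads. Relative to a scaling on reads in peaks, it raised the 40 h levels against those of 72 h. The labelled cell type was checked on 8 marker genes of L1 and lamina neurons, which summed to 1059 to 1569 RPKM in every RNA library. Among these markers svp was at 109 to 139 RPKM and VGlut, the glutamate transporter gene, at 207 to 700 RPKM. In contrast, ap and eya were at 0.199 to 6.84 RPKM and bab2 at 0.232 to 9.02 RPKM. Markers of other lamina neurons, 4 of 5 with a level, summed to 36.2 to 59.3 RPKM, with zfh1 at 30.6 to 37.2 RPKM. A set of 4 hemocyte markers summed to 24.5 to 84.2 RPKM, with crq at 18.4 to 82.4 RPKM. The summed level of 7 glial markers was 23.2 and 36.8 RPKM in the 40 h libraries, 41.3 to 73.5 RPKM in those of 60 h, and 542 and 1645 RPKM in those of 72 h. The summed level of 7 photoreceptor markers was 22.04 and 75.5 RPKM in the 40 h libraries, 211, 421 and 69.6 RPKM in those of 60 h, and 39.2 and 117 RPKM in those of 72 h. None of these glial or photoreceptor markers was listed at 0 in any library. In bulk samples, fewer cells of a type and less RNA per cell cannot be told apart.

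All 6 ATAC libraries entered the choice of the early peaks, so their ATAC levels are a description and carry no test. The median early peak stood at 97.0 and 125.5 RPKM in the 2 libraries of 40 h, at 21.6 and 21.5 RPKM in those of 60 h, and at 19.3 and 19.8 RPKM in those of 72 h. Over all peaks the medians were 40.5, 41.0, 39.8, 44.2, 43.1 and 46.7 RPKM in the same order. The typical early peak therefore lay above the median peak at 40 h and below it at the later ages. The 60 h mean was under the median 60 h mean of all peaks in 1171 of the 1331 regions, and the 72 h mean under that of 72 h in 1303. A median of 976 and 980 reads stood behind each early peak at 40 h and 146 to 179 reads at the later ages. Their share of all reads in peaks was 9.20% and 10.2% in the 40 h libraries, 2.49% and 2.25% in the 60 h libraries, and 2.09% and 2.11% in the 72 h libraries.

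**Figure D1:**
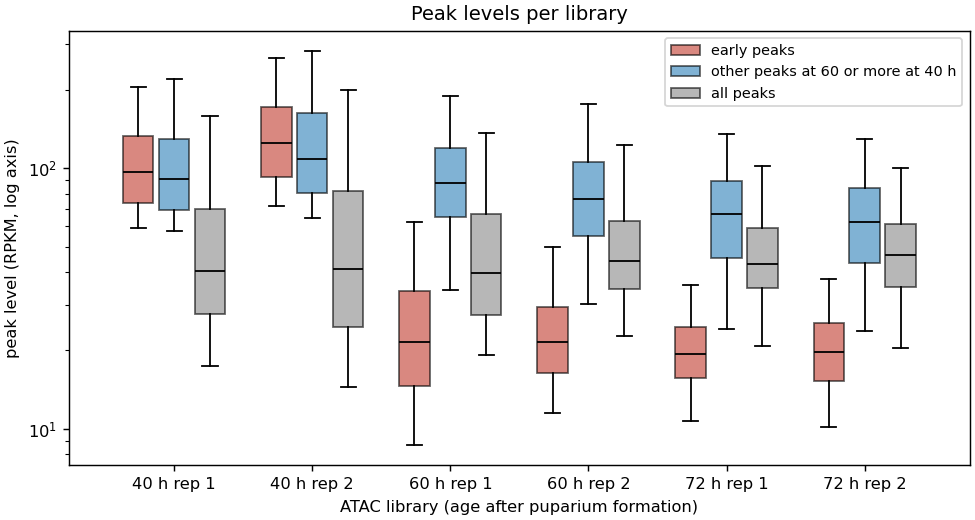
Peak levels (RPKM, log axis) in each of the 6 ATAC libraries for the 1331 early peaks, the 7370 other peaks with a 40 h mean of 60 or more, and all 26121 peaks. Boxes span the quartiles with the median as a line, and whiskers run from the 5th to the 95th percentile. The medians of the early peaks drop from 97.0 and 125.5 at 40 h to between 19.3 and 21.6 later, while those of all peaks stay between 39.8 and 46.7.

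The size of the loss by 60 h is bounded by the rule, which asks for a ratio of at least 3 at that age. The ratio of the 40 h to the 60 h mean had a median of 4.72 (range 3.00 to 33.2), and that to the 72 h mean a median of 5.57 (range 3.02 to 36.2). The 60 h mean was at least 2 times the 72 h mean in 95 early peaks (7.14%), with 5.82% of the other 40 h peaks and 2.70% of all peaks, and the reverse held for 1 early peak. It was above the 72 h mean in 60.7% of early peaks and in 88.6% of the other 40 h peaks. The 40 h mean was 60.2 to 366 RPKM with a median of 111, and it reached 200 in 143 peaks. The ratio to both later means was 10 or more in 63 peaks and under 4 in 536.

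The order of the libraries is largely fixed by the rule. In 1328 of the 1331 peaks each 40 h library was at least 2 times every later library, and in 930 it was at least 3 times every later library. Replicate 2 at 40 h read higher than replicate 1 in 1292 early peaks, with a median ratio of 1.29. The other 40 h peaks had a median ratio of 1.21 between the same libraries. Across the early peaks the log2 levels of the replicates correlated at 0.955 at 40 h, 0.910 at 60 h and 0.860 at 72 h (Pearson's r over 1331 peaks that share libraries, given as a description). The level times width summed over all peaks fell with age, from 1079290 and 1250140 at 40 h to 870286 and 880253 at 72 h. With each library scaled to the same sum, a setting chosen after seeing the data, 893 of the early peaks still met the rule.

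The thresholds cut through a continuous range. Just inside the minimum lay peaks near DAT (40 h mean 60.2 RPKM), Ser12 (60.4) and Octalpha2R (60.4), and just outside lay peaks near tey (59.98), CG43428 (59.97) and nAChRalpha5 (59.9). Just inside the ratio lay peaks near sno (3.001), InR (3.006) and CG8888 (3.007), and just outside lay peaks near btsz (2.997), Trim9 (2.995) and Mur2B (2.994).

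Early peaks lay away from starts of transcription more often than the other 40 h peaks. By the distance that the authors' deposited table gives to the nearest start, 72 early peaks (5.41%) overlapped a start, against 46.3% of the other 40 h peaks and 23.6% of all peaks. Within 500 bases of a start lay 130 early peaks (9.77%), against 52.5% of the other 40 h peaks. A further 156 (11.7%) lay at up to 2000 bases and 444 (33.4%) at up to 10000 bases. Beyond 10000 bases lay 601 (45.2%), against 22.2% of the other 40 h peaks and 39.8% of all peaks. The median distance was 8486 bases for early peaks, 269.5 bases for the other 40 h peaks and 5256 bases for all peaks. These shares are descriptions, and the differences were not tested, since neighbouring peaks are not independent.

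**Figure D2:**
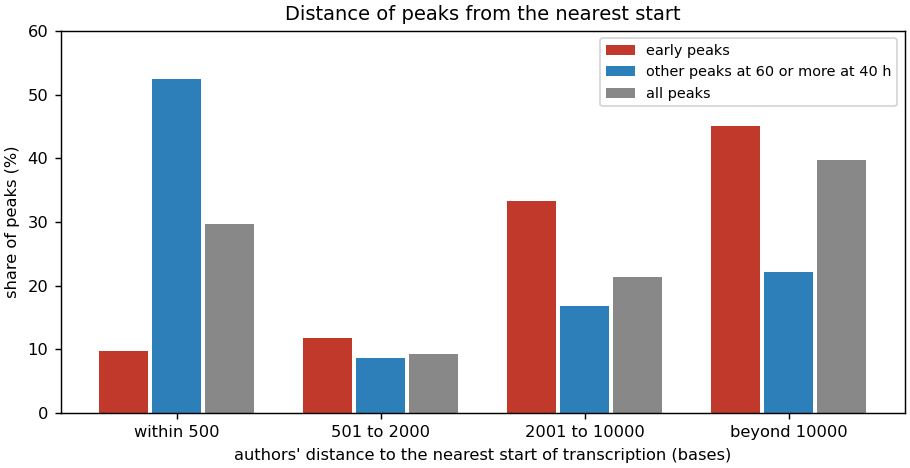
Share of peaks (%) in 4 classes of distance to the nearest start of transcription as deposited, for early peaks, the other peaks with a 40 h mean of 60 or more, and all peaks. Early peaks are at 9.77% within 500 bases and 45.2% beyond 10000 bases, while the other 40 h peaks are at 52.5% and 22.2%.

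Most early peaks lay on the downstream side of the start. By the authors' distance 1049 early peaks (78.8%) were downstream of the nearest start and 210 (15.8%) were upstream. Of all peaks 58.8% were downstream and 17.5% upstream, and of the other 40 h peaks 43.0% and 10.7%. Peaks over a start have no side, and they made up 5.41%, 23.6% and 46.3% of these sets in the same order. The downstream shares therefore cannot be compared directly, and downstream peaks outnumbered upstream ones in each set. Of the 1329 early peaks whose nearest gene has a span in the RefSeq table, 961 (72.3%) lay inside that span, with 71.5% of all peaks and 83.4% of the other 40 h peaks. The deposited distance does not always lead to the closest start of a gene: an early peak of kirre at X:2987776-2988839 carried a distance of 247392 bases although the next early peak, at X:2988898-2989189, overlapped a start of kirre. Of the 601 early peaks beyond 10000 bases, 19 lay within 2000 bases of a peak over a start of the same gene. The median width was 535 bases, with 459 bases for all peaks and 694.5 bases for the other 40 h peaks.

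The nearest gene was protein coding for 1127 early peaks (84.7%) and a long noncoding RNA gene for 170 (12.8%). Long noncoding RNA genes were nearest to 7.27% of the other 40 h peaks and 8.41% of all peaks. MicroRNA genes were nearest to 13 early peaks and tRNA genes to 8. By chromosome, early peaks made up 15.8% of the peaks with a 40 h mean of at least 60 on 2L, 13.2% on 2R, 18.1% on 3L, 15.2% on 3R and 15.3% on X. On chromosomes 4 and Y none of the 116 and 41 such peaks was an early peak.

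The promoters of the genes near early peaks lost less signal than the early peaks themselves. Of 556 peaks over a start of the nearest genes, 72 were early peaks. The median of the other 484 fell from 115 RPKM at 40 h to 84.2 RPKM at 60 h and 60.9 RPKM at 72 h, a median ratio of 1.33 and 1.80. For the 5615 peaks over starts of all other genes the medians were 63.4, 61.6 and 54.1 RPKM, and the ratios 1.05 and 1.18. The choice of early peaks excluded the start peaks with larger ratios, so these medians are a description.

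Some early peaks lay close together along the chromosomes. When peaks separated by gaps of at most 10000 bases were joined, 124 clusters of 3 or more early peaks held 456 of them (34.3%), and 507 early peaks stood alone. The same joining put 63.5% of the other 40 h peaks and 93.7% of all peaks in such clusters, but these sets are denser, so the shares cannot be compared directly. Adjoining peaks are counted singly here: 287 early peaks (21.6%) lay within 10 bases of another early peak, and joining these left 1180 regions. Among all peaks 21.1% lay that close to another peak. Positions below are as deposited. The labels name no genome build, and 88.17% of the non-zero distances led to a gene boundary of Release 6 of the fly genome.

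The largest cluster lay over px, a gene known for its role in wing vein patterning, at 2R:22501082-22533491, where 10 of 15 peaks were early peaks. Their mean level was 179 RPKM at 40 h, 35.5 RPKM at 60 h and 26.1 RPKM at 72 h. At 3R:26493478-26508726 all 7 peaks were early peaks of plum, which encodes an immunoglobulin-family surface protein with a role in axon pruning, with mean levels of 163, 19.1 and 20.4 RPKM. Dscam4, a gene of the Dscam family of neuronal recognition proteins, had 6 of 6 peaks at 3L:8247582-8251589, with means of 168, 26.1 and 23.7 RPKM. Each span starts and ends at an early peak and was named for its early peaks, so a high share within it is partly built in. Over all peaks of the gene, early peaks were 10 of 18 for px, 9 of 20 for plum and 6 of 20 for Dscam4.

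The cell death gene hid, whose product blocks inhibitors of caspases, had 6 early peaks of 6 peaks at 3L:18180449-18191244. One of them overlapped the start of hid, at 3L:18185536-18186210, and read 196 and 237 RPKM at 40 h, 30.8 and 26.03 RPKM at 60 h, and 28.7 and 22.4 RPKM at 72 h. The strongest lay 2980 bases downstream of the start at 3L:18181467-18182661 and read 251 and 332 RPKM at 40 h, 18.3 and 18.0 RPKM at 60 h, and 18.7 and 17.4 RPKM at 72 h. The 4 later values of that peak lay close together, far below both 40 h values. A peak near rpr, another cell death gene, stood at 78.9 and 123 RPKM at 40 h and at 16.0 to 23.02 RPKM later.

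The densest stretch of 250 kb was 3L:17941012-18191011, where 26 of 69 peaks (37.7%) were early peaks. It held peaks near Eip75B, several long noncoding RNA genes and hid. Within it, 7 of 7 peaks at 3L:18077399-18086138 were early peaks nearest to lncRNA:CR45392, lncRNA:CR43253 and lncRNA:CR32194, with mean levels of 222, 21.4 and 19.1 RPKM. Eip75B, a nuclear receptor induced early by ecdysone, had 5 of its 8 early peaks in a cluster at 3L:17976222-17989693, where 6 of 7 peaks were early peaks and the sixth was nearest to lncRNA:CR45921.

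A few compact regions stood out by level. At osa, which encodes a subunit of a chromatin remodelling complex, 4 adjacent peaks at 3R:17709449-17711734 averaged 294 RPKM at 40 h, 69.0 RPKM at 60 h and 32.1 RPKM at 72 h. The lncRNA:let7C locus, host of the let-7 microRNA cluster, had 5 of 6 peaks at 2L:18458412-18470598, with means of 244, 38.01 and 36.9 RPKM. Its peak at 2L:18468253-18469065 read 280 and 406 RPKM at 40 h, 10.8 and 14.5 RPKM at 60 h, and 16.0 and 18.5 RPKM at 72 h. The histone acetyltransferase gene chm had an early peak at 2L:7419662-7421394 that went from 284 and 359 RPKM at 40 h to 98.4 and 74.95 RPKM at 60 h and to 37.5 and 38.6 RPKM at 72 h. That of let7C was at its floor by 60 h, whereas that of chm lost its signal over both intervals.

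The highest 40 h mean of all early peaks, 366 RPKM, belonged to a peak of 241 bases at 2L:2200007-2200247, 2095 bases upstream of COX7AL2, a cytochrome oxidase subunit gene. It kept 90.4 to 97.6 RPKM at 60 h and 83.0 to 103.6 RPKM at 72 h, all above the median early peak at those ages. The largest ratio, 33.2, belonged to a peak at 3R:30270600-30271686 near lncRNA:CR46113, with 210 and 309 RPKM at 40 h, 6.23 and 9.42 RPKM at 60 h, and 7.75 and 6.60 RPKM at 72 h. Of the 10 largest ratios, 5 belonged to peaks nearest long noncoding RNA genes (lncRNA:CR46113, lncRNA:CR45392 with 2 peaks, lncRNA:let7C and lncRNA:CR43174). The others were near Pvf3, tRNA:Met-CAT-1-3, CG42324, hid and fipi, with ratios of 15.3 to 20.7.

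**Figure D3:**
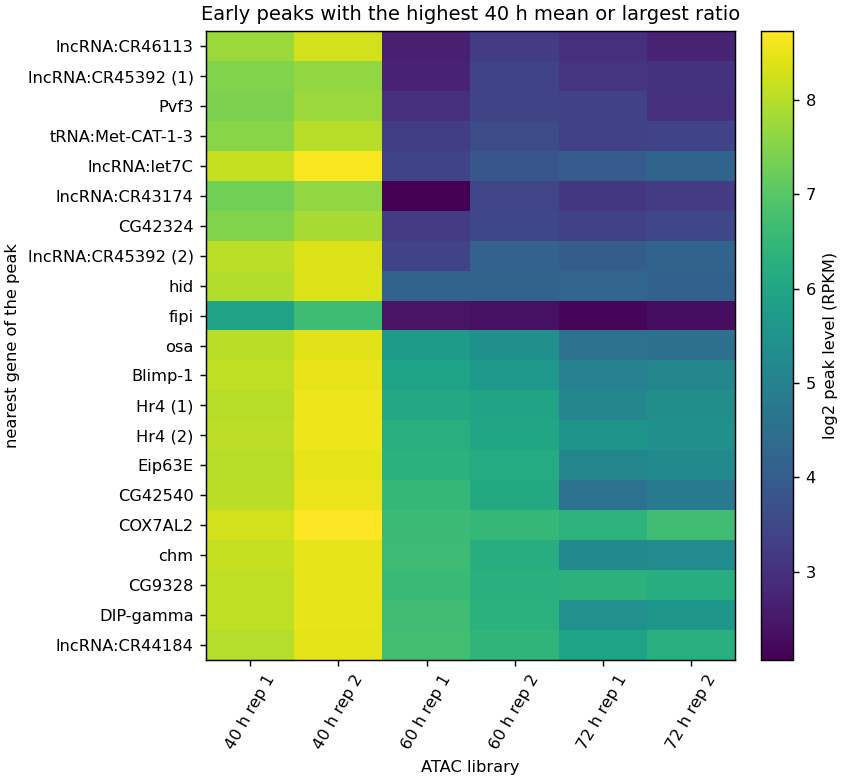
Heat map of log2 peak level (RPKM) in the 6 ATAC libraries for the 12 early peaks with the highest 40 h mean and the 10 with the largest ratio (1 peak is in both), ordered by ratio from top to bottom. The 10 upper rows read 4.19 to 18.7 RPKM in the later libraries, while some lower rows, such as COX7AL2 and lncRNA:CR44184, keep over 60 RPKM in every later library.

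The 1331 early peaks were assigned to 730 nearest genes, of which 431 had 1 early peak, 159 had 2 and 140 had 3 or more. The gene with the most early peaks was CG34353 (14 of its 31 peaks), which stands among the adhesion genes of the lists used here. The immunoglobulin-family recognition gene kirre followed with 12 of 50, px with 10 of 18, plum with 9 of 20, the RNA-binding protein gene bru3 with 9 of 38, olf413 with 9 of 28, Eip75B with 8 of 41 and sick, a regulator of axonal actin, with 7 of 37. In 45 genes with at least 3 early peaks these were at least as many as the gene's remaining peaks. The early peaks of kirre had a median of 98.2 RPKM at 40 h and of 21.2 and 18.5 RPKM later. Its 38 other peaks had medians of 35.7, 44.98 and 37.3 RPKM. The choice of early peaks took strong falling peaks out of these others, so their medians are a description.

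RNA was not used in choosing the early peaks and was tested over all 6939 genes with at least 1 RPKM in at least 2 libraries (limma on log2(RPKM + 1), Benjamini-Hochberg adjusted p under 0.05, two-sided). Of the 730 nearest genes 411 were in the RNA table and 393 were tested. Another 18 were in the table at lower levels, and 319 were not in the table, so 445 early peaks had a nearest gene with no RNA value here. The tested genes were therefore those with detected RNA at some age, and the counts below are read beside the same counts over all tested genes.

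From 40 h to 60 h, RNA of the tested nearest genes fell more often than it rose. Of 393 genes, 186 fell (47.3%), beside 22.5% of all tested genes, and 62 rose (15.8%), beside 25.2% of all tested genes. The remaining 145 did not pass the threshold. The median log2 change was -0.55 for the nearest genes and -0.002 for all genes. A log2 change below -1 was measured for 145 nearest genes (36.9%), beside 11.5% of all tested genes. Genes near the other 40 h peaks that had no early peak numbered 2535, of which 22.1% fell and 29.8% rose.

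From 60 h to 72 h the counts lay nearer to the background. Of the 393 genes 96 fell (24.4%), beside 16.4% of all tested genes, and 69 rose (17.6%), beside 16.6%. The median change was -0.01, a value near 0 whose sign varied with the processing. From 40 h to 72 h, a comparison that shares its libraries with the others, 196 fell (49.9%), beside 29.1% of all tested genes, and 73 rose (18.6%), beside 30.2%. Of the 186 genes that fell by 60 h, 51 fell again by 72 h, 102 did not pass in that interval and 33 rose.

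The share of falling genes went up with the number of early peaks. It was 42.2% of 185 genes with 1 early peak, 46.6% of 103 genes with 2 and 57.1% of 105 genes with 3 or more. Among 35 genes with 5 or more early peaks, 26 fell (74.3%), 1 rose and the median change was -1.52. Genes with more early peaks also have more peaks of any kind. Of all 318 genes with 10 or more peaks, 30.8% fell and 32.7% rose, and of 162 genes with 10 or more peaks and no early peak, 31 fell (19.1%) and 71 rose (43.8%). By the distance of the closest early peak, 60.9% of 46 genes fell within 500 bases, 68.6% of 35 at up to 2000 bases, 50.7% of 146 at up to 10000 bases and 36.1% of 166 beyond. The median 40 h RNA level differed along these classes too, at 34.1, 20.4, 18.1 and 10.1 RPKM by distance. With 1, 2, 3 or more and 5 or more early peaks it was 14.9, 16.5, 20.4 and 27.1 RPKM. The differences between these classes, and the part of the 40 h level in them, were not tested.

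**Figure D4:**
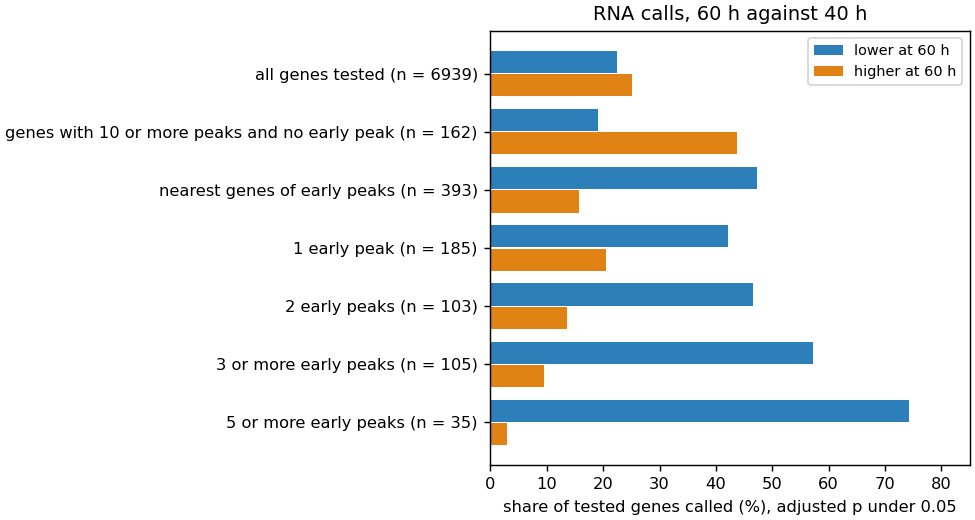
Share of tested genes (%) called lower (blue) or higher (orange) at 60 h than at 40 h, for all genes, for genes with 10 or more peaks and no early peak, and for the nearest genes of early peaks in all and by number of early peaks, with the number of genes in brackets. The share called lower is 22.5% over all genes, 47.3% over the nearest genes and 74.3% over genes with 5 or more early peaks.

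Low levels and other cells moved with age too. Genes at 1 RPKM or more only at 40 h had to fall, and 19 of the 393 were of that kind. Without them, 167 of 374 nearest genes fell (44.7%), beside 21.4% of all genes. Without 60 h replicates 1 and 2, the libraries with the highest photoreceptor sums, 143 of 389 nearest genes fell (36.8%), beside 13.8% of all genes, and 47 rose. None of the 12 peaks nearest to glial markers, and none of the 16 nearest to markers of other lamina neurons, was an early peak. Beside the 5.10% share over all peaks, these sets are too small for that count to say anything about other cells. The part of these cells in the RNA changes was not tested. Of the 13 peaks nearest to photoreceptor markers 3 were early peaks, all among the 4 peaks of trpl and none near chp, trp, norpA or inaD. This set is too small as well. RNA of trpl was at 3.84 and 4.68 RPKM at 40 h and at 0.188 to 1.46 RPKM later.

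Peaks that kept losing signal after 60 h were also counted. The 58 tested genes with an early peak whose 60 h mean was at least 2 times its 72 h mean included 24 (41.4%) that fell from 60 h to 72 h and 8 (13.8%) that rose, beside 24.4% and 17.6% of all 393 nearest genes and 16.4% and 16.6% of all tested genes. Of these 58, 34 (58.6%) had already fallen by 60 h, and the difference from the other nearest genes was not tested. Across the 393 genes, the largest 40 h to 60 h peak ratio and the RNA change had a Pearson's r of -0.18 and a Spearman's rho of -0.14, given as a description over genes that share libraries.

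Genes of the ecdysone cascade held 36 early peaks among their 273 peaks (13.2%), beside 5.10% of all peaks. Of the 32 listed genes 28 had a peak and 14 were the nearest gene of at least 1 early peak, beside 730 of 8580 for all genes with a peak. The listed genes have more peaks each, with 273 peaks for 28 genes against 26121 for 8580, so each had more chances to hold an early peak. Of the 13 with an RNA test, 11 fell from 40 h to 60 h, Eip63E rose and Eip78C did not pass (-0.63 ± 0.36, SE). Their median change was -2.25. Over all 26 tested genes of the list 16 fell and 3 rose, with a median of -0.76. The list was chosen with earlier results of these data known and is no independent evidence of a direction.

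Among the nuclear receptors of the cascade, Hr4 had 6 early peaks of 22 peaks. The strongest pair adjoined each other at X:1950843-1951770 and X:1951772-1952402, the former with 258 and 375 RPKM at 40 h, 67.6 and 62.0 RPKM at 60 h, and 35.6 and 40.8 RPKM at 72 h. Hr4 RNA stood at 229 and 301 RPKM at 40 h, at 15.4, 13.3 and 13.7 RPKM at 60 h, and at 35.7 and 27.4 RPKM at 72 h. The 60 h and 72 h libraries did not overlap, and the rise between them was called (1.10 ± 0.16, SE, limma adjusted p = 0.00047), while each of the 6 early peaks of Hr4 had a mean that was lower at 72 h than at 60 h. Eip75B RNA was 235 and 222 RPKM at 40 h and 34.8 to 45.6 RPKM in all 5 later libraries. Hr39, with 1 early peak, fell by 2.48 ± 0.33 on the log2 scale and rose again by 72 h (1.55 ± 0.33).

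The repressor gene Blimp-1 had 3 early peaks, the widest at 3L:5636346-5638237 with 273 and 360 RPKM at 40 h, 60.5 and 48.9 RPKM at 60 h, and 32.5 and 35.1 RPKM at 72 h. Its RNA was 86.5 and 76.3 RPKM at 40 h and 0.432 to 1.20 RPKM in the later libraries. For hid, RNA was 40.7 and 47.9 RPKM at 40 h, 0.324, 0.530 and 0.0715 RPKM at 60 h, and 0.601 and 0.542 RPKM at 72 h. In both genes the 40 h libraries stood far above all others, and RNA had not returned at 72 h. The small heat shock gene Hsp27 had an early peak 289 bases from its start, at 147 and 160 RPKM at 40 h and 29.4 to 53.2 RPKM later, and RNA of 842 and 635 RPKM at 40 h against 15.3 to 26.1 RPKM later.

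Other members of the cascade had smaller changes. The Ets-family gene Eip74EF fell by 1.94 ± 0.26 and the transcription factor gene mamo by 2.25 ± 0.31, and both rose from 60 h to 72 h (0.88 ± 0.26 and 1.65 ± 0.31). The rise of Eip74EF was lost without 60 h replicate 3 (limma adjusted p = 0.063), without 72 h replicate 1 (0.23) and with a replicate block (0.079). The receptor gene EcR fell by 0.55 ± 0.16 (limma adjusted p = 0.014), and its early peak kept 67.0 to 89.5 RPKM at the later ages. That call was lost without 40 h replicate 1 (adjusted p = 0.13). The coactivator gene tai fell by 0.57 ± 0.21 (limma adjusted p = 0.048), a call lost without any of the 40 h or 60 h libraries (adjusted p = 0.056 to 0.25). The transporter gene E23 fell by 0.98 ± 0.31, a call lost without 60 h replicate 1 or 2 (limma adjusted p = 0.067 and 0.075).

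Adhesion and guidance genes held 106 early peaks among 680 peaks (15.6%), beside 5.10% of all peaks. Of the 80 listed genes 74 had a peak and 38 were nearest to at least 1 early peak, beside 730 of 8580 for all genes with a peak. The listed genes have more peaks each, with 680 peaks for 74 genes against 26121 for 8580, so each had more chances to hold an early peak. Of 37 tested, 20 fell by 60 h, 4 rose and 13 did not pass, with a median of -0.73. Over the 70 tested genes of the list 33 fell and 12 rose. Lac, an immunoglobulin-family adhesion gene, had 2 early peaks of 5 peaks, and its RNA was 965 and 715 RPKM at 40 h, 1.53, 8.29 and 4.08 RPKM at 60 h, and 7.49 and 5.23 RPKM at 72 h. Every later library was below 10 RPKM, and the log2 change by 60 h was -7.40 ± 0.42. Also falling were CG34353 (53.8 to 0.669 RPKM), the Wnt receptor gene fz with 5 early peaks (114 to 3.65 RPKM), otk (70.5 to 2.19 RPKM), the flamingo cadherin gene stan with 5 (21.9 to 0.763 RPKM), CadN (110 to 18.3 RPKM) and kirre (47.3 to 10.3 RPKM).

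Other adhesion genes did not fall with their early peaks. Dscam4, whose 6 clustered peaks closed by 60 h, had RNA means of 77.5 RPKM at 40 h and 82.9 RPKM at 60 h (0.10 ± 0.16, limma adjusted p = 0.62), and fell by 1.43 ± 0.16 only from 60 h to 72 h. The teneurin gene Ten-a with 6 early peaks and the receptor phosphatase gene Ptp99A with 4 had the same order of calls, with changes of 0.19 ± 0.15 and -0.18 ± 0.12 by 60 h and of -1.11 ± 0.15 and -1.40 ± 0.12 afterwards. The 4 that rose by 60 h were Drl-2, a Wnt receptor gene of the Ryk family (5.63 ± 0.19), the neuroligin gene Nlg3 (1.66 ± 0.11), fz2 (1.01 ± 0.18) and tutl (0.35 ± 0.10).

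In the immunoglobulin-domain families that bind each other across synaptic partners, dpr and DIP genes held 26 early peaks of 418 peaks (6.22%), near the 5.10% of all peaks. Of 9 tested nearest genes, dpr3, dpr5 and dpr11 rose by 60 h and dpr10, dpr15 and DIP-gamma fell. Over the 21 tested genes of that list 8 rose and 3 fell, so all 3 falls were nearest genes of early peaks. DIP-gamma had 6 early peaks among its 8 peaks and RNA of 6.36 and 8.72 RPKM at 40 h and 0.0146 to 0.899 RPKM later. The beat and side genes, ligands and receptors in axon guidance, held 20 early peaks of 160 (12.5%). Of 10 tested nearest genes side and side-II fell, beat-VI rose and 7 did not pass. Over the 14 tested genes of that list 3 fell and 1 rose. Thus the nearest genes of early peaks in these families included some that fell and some that rose.

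Axon growth and cytoskeleton genes held 14 early peaks of 187 (7.49%), and 6 of 8 tested nearest genes fell by 60 h, while shot and GEFmeso did not pass. Of all 52 tested genes of that list, 24 fell and 6 rose. The 6 nearest genes that fell were the actin regulators ena (56.5 to 10.1 RPKM), DAAM (33.0 to 15.9 RPKM), sn, the fascin gene (80.9 to 4.13 RPKM), and bif (38.9 to 13.5 RPKM), the tubulin-binding stathmin gene stai (448 to 141 RPKM), and RhoGEF64C (1.87 to 0.209 RPKM). Signalling genes held 18 of 164 (11.0%), and 5 of 7 tested nearest genes fell, beside 10 falls and 7 rises among the 37 tested genes of that list. The 5 were the Ets repressor gene aop (47.8 to 0.906 RPKM), the EGF receptor antagonist gene aos (31.4 to 0.137 RPKM), the growth factor gene Pvf3 with 7 early peaks (60.8 to 6.90 RPKM), the insulin receptor gene InR with 4 (9.67 to 2.21 RPKM) and ptc, the Hedgehog receptor gene (1.40 to 0.251 RPKM).

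Presynaptic and lamina transcription factor genes had smaller shares of early peaks among their peaks than the 5.10% of all peaks, but not a smaller share of genes with at least 1. Presynaptic genes held 6 of 248 peaks (2.42%), near 4 of the 34 listed genes with a peak, beside 730 of 8580 for all genes with a peak. The 3 tested nearest genes, Rim, Rph and RhoGAP100F (listed as Syd-1), all fell by 60 h, while 26 of the 37 tested genes of that list rose. Rph, which encodes a Rab effector, fell from 91.5 to 1.24 RPKM. Lamina transcription factor genes held 8 of 206 (3.88%), near 5 of 28 listed genes with a peak (bab1, bab2, ct, hth and pros). Of the 3 tested, hth fell by 0.96 ± 0.26 (limma adjusted p = 0.0099; 0.096 without 40 h replicate 2), and bab2 and ct did not pass. Ion channel genes were near the average with 9 of 174 (5.17%), and 1 of 4 tested nearest genes fell, the potassium channel gene Shawl with 3 early peaks (73.1 to 24.1 RPKM). Of the 26 tested genes of that list 14 rose, none of them among these 4, and only Shawl fell.

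Beyond these lists, the largest RNA falls among the nearest genes by 60 h included CG14086 (99.5 to 0.553 RPKM), the kinase gene Dyrk2 (175 to 1.76 RPKM), CG30419 (71.3 to 0.941 RPKM) and CG42750 with 7 early peaks (60.0 to 0.775 RPKM). Genes with the most or strongest early peaks fell as well: plum went from 37.1 and 32.7 RPKM at 40 h to 0.389 to 0.798 RPKM at 60 h, CG42324 from 108 to 5.36 RPKM and sick from 64.4 to 21.8 RPKM. For px and chm the changes were smaller, -1.05 ± 0.24 and -0.89 ± 0.22, and each call was lost without 40 h replicate 2 (limma adjusted p = 0.052 and 0.054). The lncRNA:let7C transcript was low throughout, at 2.00 and 1.79 RPKM at 40 h and 0.185 to 0.937 RPKM later (-1.12 ± 0.30 by 60 h, lost without 60 h replicates 1 and 2, limma adjusted p = 0.22).

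Some early peaks were assigned to genes whose RNA was not called lower by 60 h or was not tested. The osa gene had RNA of 13.4 and 13.02 RPKM at 40 h, 11.2, 11.8 and 9.73 RPKM at 60 h, and 11.4 and 9.29 RPKM at 72 h (-0.26 ± 0.18 by 60 h, limma adjusted p = 0.27). Its 4 early peaks had meanwhile gone from a mean of 294 RPKM to 69.0 and 32.1 RPKM. The genes bru3, bab1 and pros were in the RNA table below the level tested, so no direction is given for them. By 60 h olf413 and fipi did not pass (-0.87 ± 0.36 and 0.15 ± 0.41). The RNA mean of olf413 was 1.25 RPKM at 40 h and 0.197 RPKM at 60 h. It was called lower with a pseudocount of 0.5 (limma adjusted p = 0.049).

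For 62 nearest genes (15.8%, beside 25.2% of all tested genes) RNA rose by 60 h while an early peak assigned to them closed. By the deposited distance, the closest early peak of 32 of the 62 lay beyond 10000 bases. Among these were Eip63E (14132 bases) and beat-VI (18004 bases). The cyclin-dependent kinase gene Eip63E had RNA of 17.4 and 22.6 RPKM at 40 h, 200 to 207 RPKM at 60 h, and 117 and 132 RPKM at 72 h. Its 2 early peaks averaged 208 RPKM at 40 h and 54.9 RPKM at 60 h, whereas the median of its 29 other peaks went from 25.6 to 46.97 RPKM. In beat-VI the early peak fell from a mean of 170 to 35.3 RPKM while the median of its 24 other peaks went from 20.1 to 46.4 RPKM, and RNA went from 64.7 to 502 RPKM. For both genes, the RNA and the median of the remaining peaks moved opposite to the early peaks. The choice of early peaks took strong falling peaks out of the remaining ones, so those medians are a description.

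The calmodulin-binding protein gene igl had an early peak over its own start, at 2R:15155167-15155851, with 128 and 139 RPKM at 40 h, 14.3 and 16.0 RPKM at 60 h, and 18.9 and 13.2 RPKM at 72 h. Its RNA rose over the same ages, from 57.1 and 59.4 RPKM to 829, 962 and 926 RPKM and to 2288 and 1806 RPKM. PVRAP, which encodes an adaptor of the receptor Pvr, had 4 early peaks and RNA of 1.17 and 1.03 RPKM at 40 h, 8.19, 17.5 and 20.6 RPKM at 60 h, and 273 and 254 RPKM at 72 h. Other large rises by 60 h were those of dpr5 (5.36 to 187 RPKM), Egfrap (2.93 to 83.5 RPKM), CG9328 (26.9 to 211 RPKM) and CG42540 (118 to 705 RPKM), each with 1 or 2 early peaks. Their closest early peaks lay at 13730, 4767, 10659 and 338 bases in the same order.

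**Figure D5:**
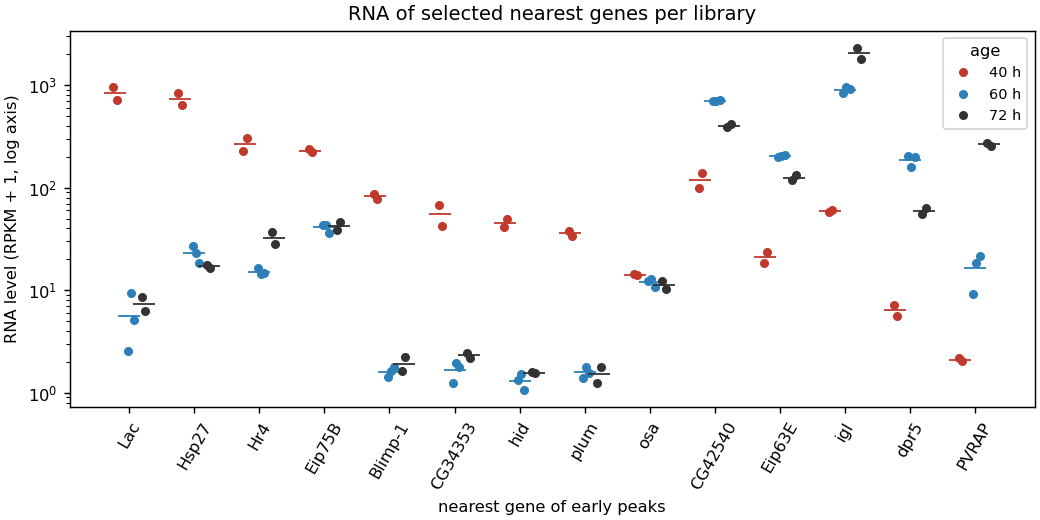
RNA level (RPKM + 1, log axis) of 14 nearest genes of early peaks in each of the 7 libraries, coloured by age, with the mean of each age as a dash. From Lac to plum the 40 h libraries are the highest, osa stays between 9.29 and 13.4 RPKM, and from CG42540 to PVRAP the 40 h libraries are the lowest.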

How the data were processed

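Per the labels, L1 neurons were sorted and libraries made with SMART-seq2 (RNA) and a modified transposase protocol (ATAC). Per the submitters' processing notes the tools included Bowtie2 2.2.9, MACS2 2.1.1, bedtools and edgeR 3.26.8, with no roles given. The deposited RNA table held RPKM for 7076 genes, per the file headers. The deposited ATAC table gave a level, nearest gene and distance for each of 26121 peaks, called on merged libraries per the peak names. Its unit was not labelled and was read as RPKM, since level times width gave whole reads within 0.1 for 100% of values. Scaling differences between ages would move peaks across the rule.

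The members, gene lists and tests were chosen with earlier results of these data known. The rule was applied to means of 2 libraries per age. RNA was fitted with limma 3.58.1 in R 4.3.3 on log2(RPKM + 1), a scale that understates changes of low genes, in 1 fit over 3 ages with trended moderation and no block. Tables were made with python 3.11.15. The fit was tested on simulated data. Tests covered the 6939 of 7076 genes that reached 1 RPKM in 2 or more libraries. The estimated effective size was 46.1 and 46.0 M reads at 40 h and 22.1 to 28.5 M reads later. Symbols matched current names directly (6654) or by synonym (398), and 24 did not match.

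Named genes were the nearest genes of the 12 early peaks with the highest 40 h mean and of the 10 with the largest ratio, the 8 genes with most early peaks, the 8 largest falls and 8 largest rises in RNA by 60 h, every nearest gene of the ecdysone and lamina transcription factor lists, and the 3 peaks on each side of each threshold. Further list members, clusters and rpr were named after their values were seen. Alternatives covered the pseudocount, filter, scaling, block, each library left out, distance and rule. No genome sequence was used here, so no peak sequence or motif is given.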

Additional observations from a re-analysis of the deposited data

How the results depend on the processing

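No count or named gene reversed under the alternatives run. The median change of the nearest genes from 60 h to 72 h, -0.01, turned to 0.005 with a pseudocount of 0.5, 0.02 with no filter and 0.06 without 72 h replicate 1. Of 1746 values of named genes under the RNA alternatives, 1657 kept their direction and side of the threshold, 68 lost their call and 21 gained one. The rule found 2302 peaks at a ratio of 2 and 795 at a ratio of 4, and 1044 to 1632 with each ATAC library left out. With only early peaks within 10000 bases, 30 nearest genes rose by 60 h, 55 fell from 60 h to 72 h, and 128 fell and 36 rose from 40 h to 72 h, fewer because only 227 genes were then tested. Without 60 h replicates 1 and 2, 56 fell and 43 rose from 60 h to 72 h, and the share of all genes called fell as well. Among genes with a mean of at least 10 RPKM, a setting chosen after seeing the data, 121 of 222 fell by 60 h and 45 rose from 60 h to 72 h. Leaving out each RNA library gave 146 to 189 falls and 52 to 62 rises by 60 h, 72 to 95 and 52 to 72 from 60 h to 72 h, and 164 to 196 and 59 to 72 from 40 h to 72 h.

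Whether the replicate number pairs the RNA libraries could not be settled. Deviations from the age means of same-numbered libraries correlated at 0.04 and -0.02 between 40 h and 60 h, and at 0.01 and -0.09 between 60 h and 72 h. Between 40 h and 72 h both pairs gave 0.22, but with 2 libraries at each of these ages the deviations mirror each other, so this is 1 value. The correlations were not over 0.1 in every pair, and the main fit had no block. With the replicate block 177 nearest genes fell and 56 rose by 60 h, 85 fell and 67 rose from 60 h to 72 h, and 194 fell and 71 rose from 40 h to 72 h. Motif and base composition shares of the peaks, with either window length, were not run. With 2 ATAC libraries per age, a peak's place near a threshold is uncertain, and the nearest gene need not be the gene that a peak regulates.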
